A study of Mus musculus with 2 samples.

Results

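The cytochrome P450 genes are a large family of heme enzymes, and 99 of them were measured in adult mouse stomach. They were the genes that GENCODE M21 lists as protein-coding, that stand in both deposited gene tables, and whose symbol is Cyp followed by a family number, a subfamily letter and a gene number. Cyp51 was not counted among them. The tables held 21474 protein-coding genes among 43346 mouse genes, and 16 further genes with such a symbol were left out because they are not protein-coding. Polyadenylated RNA was taken from the stomach of C57BL/6J mice, a common inbred strain, at 8 weeks of age, with no treatment named in the labels. There was 1 group of 2 libraries, called replicate 1 and replicate 2, each a pool of male and female littermates with a tissue sample of its own. Both carry the same donor record, so the spread given here is that between these libraries and may not be that between animals. With 1 group no contrast between conditions exists and no test was made.

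P450 enzymes bind heme through a conserved cysteine and use oxygen, with electrons passed on by reductases, to oxidise small hydrophobic molecules. Families Cyp1 to Cyp3 are best known for clearing drugs, toxins and other foreign compounds, chiefly in liver and intestine, while members of Cyp4 and Cyp2j act on fatty acids and on eicosanoids, the signalling lipids made from arachidonic acid. Other members make or break down retinoic acid, vitamin D, bile acids and steroid hormones.

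The libraries held 52363597 and 62452468 expected read pairs. Markers of the cells that make up the stomach were found at a TPM, a level scaled for transcript length and library total, of at least 1 in both libraries for 4 of 4 chief cell genes, 3 of 4 parietal cell genes, 4 of 4 pit cell genes and 6 of 6 genes of squamous forestomach. The libraries differed in the levels of these markers. The summed TPM of the chief cell list was 103698 in replicate 1 against 151967 in replicate 2, nearly all of it Pgc (101314 and 148481). That of the parietal cell list was 4979 and 2718, nearly all of it Atp4a and Atp4b. By scaled counts 4 of 4 chief cell genes were higher in replicate 2, and so was 1 of 4 parietal cell genes (Slc26a7). Genes of other cell types were detected for 3 of 3 fat, 3 of 3 endothelium, 1 of 4 acinar pancreas and 0 of 3 kidney markers. In RNA from whole tissue, fewer cells of a type and less RNA per cell cannot be told apart.

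The sequence that defines the family is the stretch that carries the heme-binding cysteine, and it is shown for the 6 members of highest level. Each is 30 bases of the spliced coding sequence of the longest coding transcript (GENCODE M21, mm10), with the cysteine codon in capitals.
Cyp2s1: tactccttaggtaagcgagtcTGCctggga
Cyp2f2: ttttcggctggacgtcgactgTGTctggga
Cyp2c65: ttctcaacaggaaaacggattTGTgtggga
Cyp4f13: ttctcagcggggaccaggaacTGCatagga
Cyp4f39: ttctcagcaggtcccaggaatTGCatcggg
Cyp4f18: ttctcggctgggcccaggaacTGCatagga
Such a stretch, read as an aromatic residue, a glycine and the cysteine at fixed spacing, was found in 97 of the 99 members and not in the transcripts used for Cyp20a1 and Cyp2b10. It opened with the codon ttt or ttc in 95 members, with tgg in 1 (Cyp8b1) and with tac in 1, which was Cyp2s1, the most abundant member in stomach. The cysteine codon was TGC in 60 members and TGT in 37. There were 79 distinct stretches among the 97.

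Most of the family was not detected in stomach. A TPM of at least 1 in both libraries, the limit used here for detection, was reached by 19 of the 99 members (19.2%), against a background of 48.9% of all protein-coding genes. No read pair was assigned to 32 members (32.3%), against 22.5% of protein-coding genes. The highest TPM that 3 read pairs would have given among these 32 was 0.0734, so expression of these members below that level may have been missed at this depth. A further 44 members had reads and a mean TPM below 1, and 23 had a mean TPM of 1 or more, of which 4 were below 1 in a single library. The median member had a TPM of 0.07, against 1.15 over all protein-coding genes.

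The whole family summed to a TPM of 477.9 in replicate 1 against 501.5 in replicate 2, or 489.7 ± 16.7 (SD, n = 2). A single gene, Cyp2s1, made up 58.5% and 58.6% of that sum. Without it the other 98 members summed to 198.1 and 207.6. The nearness of the family sums depends on the total that TPM is taken over: with the digestive enzyme genes Clps and Pgc, which dominate this tissue, left out of the total, the sums were 678.5 and 875.8.

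**Figure D1:**
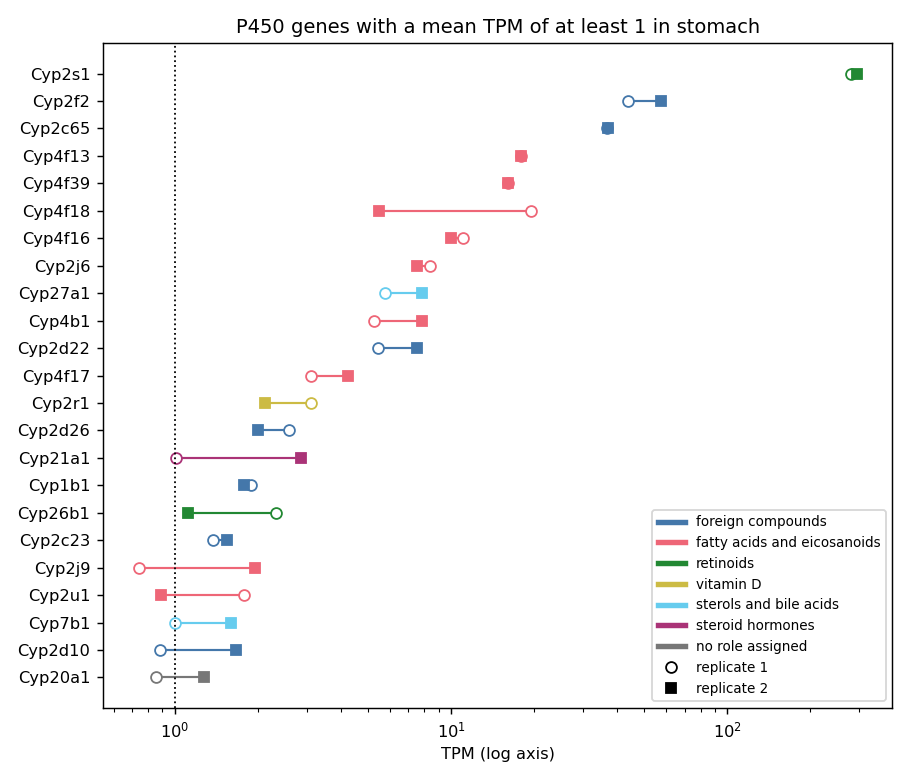
TPM (log axis) of the 23 P450 genes with a mean TPM of 1 or more, ordered by mean, with an open circle for replicate 1 and a filled square for replicate 2 joined by a line and coloured by role. Cyp2s1 stands at 279.8 and 293.9, above the 57.8 reached by the next gene, and Cyp4f18 has the widest line, from 19.4 to 5.46.

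Among enzymes of retinoic acid, Cyp2s1 was the leading P450 gene of the stomach. Cyp2s1 encodes a P450 of epithelia outside the liver that can oxidise retinoic acid, and it lies on chromosome 7 from 25802475 to 25816913 on the minus strand of mm10. Its TPM was 279.8 in replicate 1 against 293.9 in replicate 2 (286.8 ± 9.99, SD, n = 2), which placed it at rank 245 among protein-coding genes. The libraries were close: the log2 ratio of scaled counts, replicate 2 over replicate 1, was 0.04 with a 95% counting interval from 0.02 to 0.06. Most of this RNA was the coding transcript of 2745 bases, with 93.2% and 90.4% of the gene's TPM. A transcript annotated as retaining an intron took 6.23% and 8.82%.

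The dedicated retinoic acid hydroxylases, which break down this signalling molecule, were low. Cyp26b1 (chromosome 6, 84571414 to 84593908) had a TPM of 2.32 in replicate 1 against 1.11 in replicate 2, from 602 and 344 read pairs. Its log2 ratio was -1.09 (95% counting interval -1.29 to -0.90). Cyp26a1 had 16 read pairs in replicate 1 and none in replicate 2. With 3 read pairs set for replicate 2, its level was 6.51-fold higher in replicate 1. The 95% counting interval of its log2 ratio ended at -2.24. Cyp26c1 had 0 and 1 read pairs. Cyp26b1 and Cyp26a1 thus stood higher in replicate 1, whereas Cyp2s1 lay near equality.

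Genes that supply and bind retinoids were measured beside these enzymes. Of 13 genes for retinoid handling, 10 were detected, with a median TPM of 5.47. The highest were Dhrs3, which reduces retinal (68.3 ± 13.3), the retinoic acid binding protein Crabp2 (8.56 ± 0.127) and the retinol carrier Rbp4 (7.78 ± 0.863). Lrat, which esterifies retinol, had no read pair in either library.

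Of 50 members of the subfamilies that handle foreign compounds, 6 were detected and 22 had no read pair. Their summed TPM was 95.9 in replicate 1 against 113.6 in replicate 2. A pair of genes, Cyp2f2 and Cyp2c65, carried most of it.

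Cyp2f2 (chromosome 7, 27119909 to 27133660, plus strand) encodes the enzyme known from club cells of the mouse airway, where it activates naphthalene. It had a TPM of 43.5 in replicate 1 against 57.8 in replicate 2 (50.6 ± 10.1, SD, n = 2). The log2 ratio was 0.38 (0.32 to 0.44), so replicate 2 was higher by more than counting error but by less than 2-fold.

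Cyp2c65 (chromosome 19, 39061015 to 39093944, plus strand), a mouse Cyp2c enzyme that can oxidise arachidonic acid, had a TPM of 36.8 and 36.9 (36.8 ± 0.0495). Its log2 ratio was -0.03 (-0.09 to 0.04), so no difference between the libraries was measured beyond counting error.

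The other detected genes of this kind were lower. Cyp2d22 had a TPM of 5.41 and 7.53, Cyp2d26 had 2.59 and 1.99, and Cyp2c23, which makes epoxides of arachidonic acid in kidney, had 1.37 and 1.54. Cyp1b1, an enzyme of oestradiol and of polycyclic hydrocarbons, had 1.89 and 1.78. Cyp2d10 stood at 0.88 in replicate 1 and reached 1.66 in replicate 2, so it was not counted as detected. Among these, Cyp1b1 and Cyp2c23 had counting intervals of the ratio that span 0.

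Below a mean TPM of 1, 21 of these genes had reads. The highest were Cyp3a13 with a TPM of 0.70 and 0.87, Cyp2d34 with 0.66 and 0.23, and Cyp2ab1 with 0.48 and 0.19. The remaining 18 lay between 0 and 0.57 in either library: Cyp2e1, Cyp2b10, Cyp2b19, Cyp2w1, Cyp2c55, Cyp2c66, Cyp1a1, Cyp2d9, Cyp2a5, Cyp1a2, Cyp2c29, Cyp2c68, Cyp2a12, Cyp2d12, Cyp3a41a, Cyp2a4, Cyp2c54 and Cyp2c67. The Cyp3a subfamily, the main drug-metabolising group of liver and small intestine, had 9 members, of which 0 were detected and 7 had no read pair in either library.

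Some of the low genes were far apart in the libraries, and the following were chosen after their values were seen. Cyp2e1, the ethanol-inducible liver enzyme, had 3 read pairs in replicate 1 against 64 in replicate 2. Cyp1a2, another enzyme abundant in liver, had 0 and 22, at least 6.01-fold higher in replicate 2. Cyp2w1 had 3 and 43, Cyp2c55 had 9 and 51, and Cyp2d9 had 5 and 40. All of these stood higher in replicate 2. Cyp1a1, a target gene of the aryl hydrocarbon receptor, had 45 read pairs in replicate 1 against 25 in replicate 2, and Cyp2d34 had 54 against 23 (log2 ratios -1.07 and -1.44).

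Markers of liver and of other organs were read beside these genes. Of 6 liver genes, 2 were detected, and 4 were higher in replicate 2. Alb had a TPM of 0.08 in replicate 1 against 0.61 in replicate 2, Serpina1c had 0 and 0.87, and Fgb had no read pair in either. The summed level of the list was 77.9 and 80.8, nearly all of it Ttr with 75.91 and 76.04. The part of liver RNA in the counts of Cyp2e1 and Cyp1a2 was not tested. Outside liver, 4 of 4 acinar pancreas genes were also higher in replicate 2, with sums of 6.12 and 8.51, and all protein-coding genes of a mean TPM below 1 with at least 20 read pairs had a median log2 ratio of 0.38. Of 6 small intestine genes, 3 were detected and 3 were higher in replicate 2, among them Fabp2 with 7 against 41 read pairs. Their sums were 37.5 and 29.3, mostly Apoa4 (24.8 and 13.4), with no read pair for the brush border enzyme gene Sis.

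Roles were assigned by symbol, and 29 members (Cyp4, Cyp2j and Cyp2u) were placed with fatty acids and eicosanoids. Of these, 7 were detected and 8 had no read pair, and they summed to a TPM of 85.1 in replicate 1 against 73.6 in replicate 2. Cyp2c65 and Cyp2c23, which also oxidise arachidonic acid, were counted with foreign compounds instead. The Cyp4f subfamily held 5 of the 7, with 5 of its 9 members detected.

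Cyp4f13 (chromosome 17, 32924688 to 32947402) had a TPM of 17.8 and 18.0, a mean of 17.9 ± 0.0778. With all its read pairs set over the longest coding transcript, the TPM was 14.2 and 15.2. Cyp4f39 (chromosome 17, 32452723 to 32493320), the mouse counterpart of the human enzyme that hydroxylates very long fatty acids for the skin barrier, had 16.0 and 16.1. For both genes the counting interval of the log2 ratio spanned 0, from -0.04 to 0.17 for Cyp4f13 and from -0.13 to 0.09 for Cyp4f39. The marker list of squamous epithelium, a tissue with such a barrier, summed to 1422 and 1241 in the same libraries. Most of that sum was Krt4 (556.0 and 411.2) and Krt13 (629.7 and 543.5), and by scaled counts 4 of the 6 genes were higher in replicate 2. The part of this epithelium in the Cyp4f39 level was not tested.

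Cyp4f18 (chromosome 8, 71988482 to 72009626), known for breaking down the inflammatory lipid leukotriene B in neutrophils, had a TPM of 19.4 in replicate 1 against 5.46 in replicate 2, from 773 and 300 read pairs. Its log2 ratio of -1.65 (-1.85 to -1.46) was the lowest among the 23 members with a mean TPM of 1 or more. Macrophage markers were also higher in replicate 1, in 3 of 3 genes, with summed TPM of 99.0 and 71.0, and the part of blood-derived cells in the Cyp4f18 level was not tested. By mean TPM its leading transcript was a short coding one of 603 bases, with 36.8% and 49.9% of the gene's TPM. Counted in read pairs, a coding transcript of 1702 bases led, with 61.4% and 68.1%, against 21.2% and 25.7% for the short one. With all read pairs set over the transcript of 1702 bases, the TPM was 8.93 and 2.89. The order of the libraries was the same on that scale.

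Cyp4f16 (chromosome 17, 32536558 to 32551798) had a TPM of 11.1 and 9.95. By mean TPM its leading transcript was not a coding one but a fragment of 891 bases annotated as retaining an intron, with 38.4% and 30.2% of the gene's TPM. In replicate 2 alone a coding transcript of 2227 bases led, with a TPM of 3.42 against 3 for the fragment. Coding transcripts together held 31.7% and 42.5% of the TPM. Counted in read pairs, which are not divided by length, the fragment took 21.1% and 15.6% and the coding transcripts 51.3% and 64.4%. With all read pairs set over the longest coding transcript, its TPM was 6.79 and 6.54. Cyp4f17 had 3.12 and 4.23.

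Outside Cyp4f, the detected genes placed in this role were Cyp2j6 and Cyp4b1. Cyp2j6, of a subfamily that makes epoxides of arachidonic acid, had a TPM of 8.40 in replicate 1 against 7.55 in replicate 2. Cyp4b1, which hydroxylates fatty acids and activates some plant toxins in lung, had 5.24 and 7.87, with a log2 ratio of 0.59 (0.41 to 0.78). Its coding transcripts held 61.3% and 73.5% of that TPM. With all read pairs set over the longest coding transcript, its TPM was 3.69 and 5.69.

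A further pair of genes had a mean TPM of 1 or more but fell below 1 in a single library. Cyp2j9 had 0.74 and 1.95 (log2 ratio 1.35, 1.00 to 1.76). Cyp2u1, a fatty acid hydroxylase, had 1.77 and 0.89 (log2 ratio -1.01, -1.35 to -0.70). They stood apart in opposite directions.

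Of the 12 lower members with reads, the highest were Cyp4v3 with a TPM of 0.40 and 0.61, Cyp4f15 with 0.55 and 0.15, and Cyp4a32 with 0.13 and 0.24. The other 9 (Cyp4a10, Cyp4f14, Cyp4f40, Cyp4x1, Cyp4a12b, Cyp4f37, Cyp4a12a, Cyp2j13 and Cyp2j5) lay between 0 and 0.24. The Cyp4a subfamily, classical targets of the fatty acid sensor Ppara in liver, had 8 members, of which 0 were detected and 4 had no read pair.

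Of 6 members that act on sterols and bile acids, 2 were detected and 1 had no read pair. Cyp27a1 (chromosome 1, 74713574 to 74737892), the mitochondrial sterol hydroxylase that opens the alternative route to bile acids, had a TPM of 5.77 in replicate 1 against 7.85 in replicate 2. The ratio of its read pairs was smaller (log2 ratio 0.13, -0.05 to 0.30), and the leading coding transcript held 81.8% and 60.1% of its TPM. Cyp7b1, which hydroxylates oxysterols, had 1.00 and 1.60. Cyp7a1, the rate-limiting enzyme of the classical route in liver, had no read pair in either library, where 3 read pairs would have been a TPM of 0.026 in replicate 1. The deposited posterior mean TPM of Cyp7a1 was nevertheless 0.76 and 0.40, of which 0.75 and 0.39 stood on a transcript of 228 bases whose posterior mean count was 0 in both libraries. The other members without reads had a posterior mean TPM of at most 0.28. Cyp46a1, the cholesterol hydroxylase of brain, had 0.55 and 0.67, Cyp8b1, needed for cholic acid, had 0.47 and 0.51, and Cyp39a1 had 0.18 and 0.31.

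Among vitamin D enzymes, Cyp2r1, which carries out the first activation step, had a TPM of 3.12 in replicate 1 against 2.12 in replicate 2. Its reads were mostly assigned to different short transcripts in the libraries. In replicate 1 a short coding transcript of 917 bases held 89.4% of its TPM, and in replicate 2 all 117 read pairs were assigned to a transcript of 995 bases annotated as subject to nonsense-mediated decay. The posterior standard deviation of those counts was 16.1% and 10.9% of the count. For the transcript of 995 bases in replicate 1 it was 87.6% of a count of 13.8, so the assignment is loose. Over the full coding transcript of 1627 bases the level of Cyp2r1 would be 1.59 and 1.19. Cyp27b1, the enzyme of the last activation step, had 0.60 and 1.10, and Cyp24a1, which breaks down active vitamin D, had 0 and 3 read pairs.

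Enzymes of steroid hormone synthesis were near the limit of detection. Cyp21a1 (chromosome 17, 34801348 to 34804561), needed for glucocorticoids and mineralocorticoids, had a TPM of 1.01 in replicate 1 against 2.85 in replicate 2, with a log2 ratio of 1.36 (1.06 to 1.70). It overlaps Tnxa on the opposite strand, and the strand setting of the counting is not given in the sources used here. Cyp11a1, which starts steroid synthesis from cholesterol, had 0.83 and 0.73, Cyp11b1 had 0.07 and 0.24, Cyp17a1 had 0.09 and 0.04, and Cyp11b2 had 0 and 0.01. Cyp19a1, the aromatase that makes oestrogens, had no read pair in either library. By scaled counts, 4 of 4 marker genes of adrenal and gonad, a list that includes Cyp11a1, stood higher in replicate 2, with sums of 1.57 and 2.18 and none detected. Their part in the Cyp21a1 level was not tested. Cyp20a1, whose substrate is not established, had a TPM of 0.85 and 1.27.

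**Figure D2:**
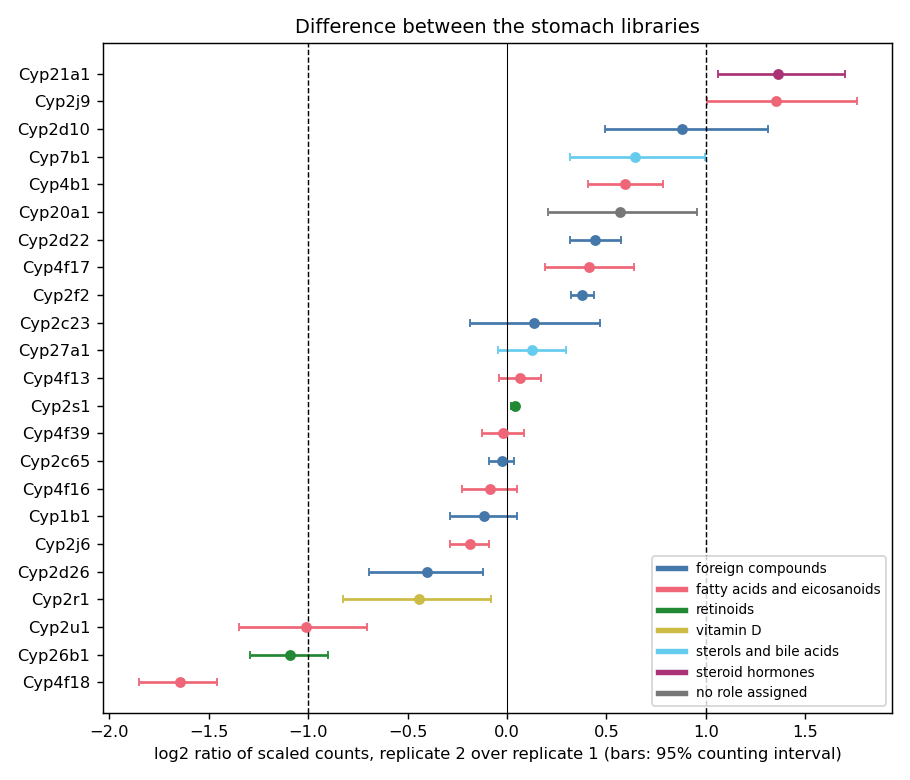
Log2 ratio of scaled counts, replicate 2 over replicate 1, for the 23 P450 genes with a mean TPM of 1 or more, with bars for the 95% counting interval and dashed lines at a 2-fold difference. Cyp21a1 and Cyp2j9 lie beyond the right line and Cyp4f18, Cyp26b1 and Cyp2u1 beyond the left one.

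Set side by side, the libraries were within 2-fold of each other for most expressed members, while the shares beyond it, of few genes, were above background. Of the 23 with a mean TPM of 1 or more, 18 differed by less than 2-fold, 3 were at least 2-fold higher in replicate 1 (13.0%, against a background of 5.47% of protein-coding genes) and 2 in replicate 2 (8.70%, against 2.13%). The median log2 ratio was 0.07, against -0.05 over all such genes. Counting intervals excluded 0 for 6 genes higher in replicate 1 (26.1%, against 44.2% of all protein-coding genes of such a level) and 10 higher in replicate 2 (43.5%, against 33.0%). Cyp26b1 and Cyp2u1 lie near the 2-fold limit: under upper quartile scaling, 1 member was at least 2-fold higher in replicate 1, and it was Cyp4f18. On log2(TPM + 1) that count was also 1, and 0 members were 2-fold higher in replicate 2. The added 1 shrinks the ratios of genes near a TPM of 1. Cyp21a1 and Cyp2j9 passed the limit under every scaling and prior count tried.

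The low members leaned to replicate 2. Of 23 with a mean TPM below 1 and at least 20 read pairs in all, 17 were higher in replicate 2 and 7 of them at least 2-fold (30.4%, against 21.6% of protein-coding genes in that range), while 3 were at least 2-fold higher in replicate 1 (13.0%, against 8.29%). Their median log2 ratio of 0.44 stood near the 0.38 of all such genes. Reads in a single library were found for 16 members, with at most 22 read pairs, and most of the 16 had 3 or fewer. Of the 16 members, 12 had reads in replicate 2 (12.1% of members, against 2.87% of protein-coding genes) and 4 in replicate 1 (4.04%, against 2.24%). These shares cover all members and all protein-coding genes, whose levels differ. Replicate 2 was also the larger library, with 62452468 expected read pairs against 52363597.

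Most P450 genes lie in tandem clusters, and within a cluster the levels were uneven. With a gap of at most 500 kb between neighbours, 72 members fell into 8 clusters of 3 or more genes. Of these 72 members, 11 were detected, and of the 27 members outside such clusters, 8 were.

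The chromosome 7 cluster from Cyp2s1 to Cyp2t4 (25802475 to 27158668) held 13 genes, of which Cyp2s1 and Cyp2f2 were detected. These lie at or next to its opposite ends, with 10 genes of the Cyp2a, Cyp2b and Cyp2g subfamilies between them and none of those detected. On chromosome 19, the cluster from Cyp2c55 to Cyp2c70 held 14 genes, and Cyp2c65 alone was detected, with 98.9% and 98.0% of the cluster's summed TPM. The Cyp3a cluster on chromosome 5 held 8 genes, 7 of them without reads.

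The Cyp4f cluster on chromosome 17 (32452723 to 32947402) was the cluster with the most detected genes, 4 of 8. Its summed TPM was 48.8 in replicate 1 against 48.6 in replicate 2. In the other clusters of 8 or more, 2 of 8 Cyp2d genes, 1 of 8 Cyp2j genes and 1 of 10 genes from Cyp4x1 to Cyp4b1 were detected.

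**Figure D3:**
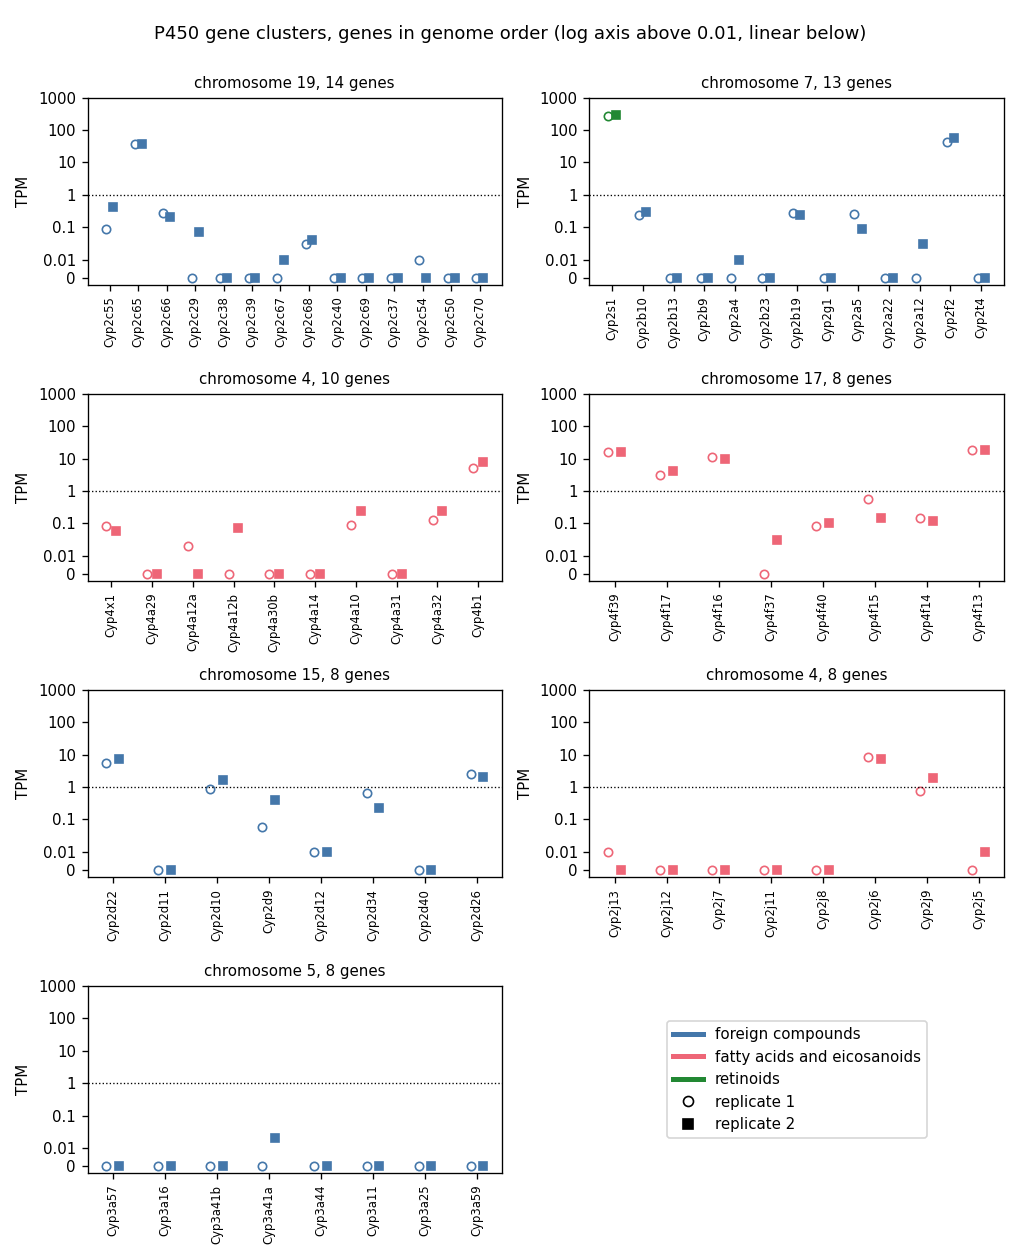
TPM of each gene in the 7 clusters of 8 or more P450 genes, in genome order, on an axis that is logarithmic above 0.01 and linear below it, with open circles for replicate 1 and filled squares for replicate 2. The dotted line marks a TPM of 1, and in the cluster of 14 genes Cyp2c65 alone lies above it.

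Cyp2c65 and its close copy Cyp2c66 show how far near-identical genes parted in the gene tables. Cyp2c66 (chromosome 19, 39113898 to 39187072, plus strand) was assigned 23.1 and 21.2 read pairs, against 3667 and 4396 for Cyp2c65, and its TPM was 0.27 and 0.21. Yet the coding sequences, 1473 bases each, were 96.3% identical. The 250 bases before each gene's RefSeq start (GRCm38.p6) are shown because these neighbours carry alike sequence at levels so unlike. They are chr19:39060756-39061005 for Cyp2c65 and chr19:39113648-39113897 for Cyp2c66, on the plus strand, with the TATAAA motif in capitals.
Cyp2c65: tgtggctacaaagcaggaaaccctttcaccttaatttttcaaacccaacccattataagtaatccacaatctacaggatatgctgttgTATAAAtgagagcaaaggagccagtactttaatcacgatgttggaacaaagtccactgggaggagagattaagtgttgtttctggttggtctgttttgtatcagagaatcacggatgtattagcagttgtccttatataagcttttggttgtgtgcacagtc
Cyp2c66: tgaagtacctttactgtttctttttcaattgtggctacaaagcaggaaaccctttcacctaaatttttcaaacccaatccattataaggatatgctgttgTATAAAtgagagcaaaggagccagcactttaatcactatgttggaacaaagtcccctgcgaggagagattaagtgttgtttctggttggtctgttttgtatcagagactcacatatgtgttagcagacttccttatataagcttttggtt
Over an alignment of 221 bases these were 94.1% identical, and each held 1 TATAAA. A match to the motif is a description of the letters and not of a site in use.

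The TATAAA motif was searched on both strands in the same 250-base window of every gene that the RefSeq table holds, taking for each gene the entry with most matches. It was found in 14.3% of 27025 genes. Of the 76 members with an entry, 29 (38.2%) held it. Among those with a mean TPM of 1 or more, 4 of 17 did, and among those below 1, 25 of 59. The GCGTG core bound by the aryl hydrocarbon receptor, also searched on both strands as GCGTG and CACGC, was found in 30.9% of all genes and in 15 of 76 members (19.7%). The window before the RefSeq start of Cyp2s1 (25816526 to 25816775) held neither motif. It lies inside the span that GENCODE M21 gives this minus-strand gene, which reaches to 25816913. Of 86 entries of members, 58 had their first 30 transcribed bases in a GENCODE transcript of the gene, so starts may differ between the annotations.

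The deposited junction table gave a separate readout of the same genes. It counts reads that cross a splice junction, on the older build mm9 and for the libraries combined. Introns could be tied by their lengths and spacing for 50 members, which included all 23 with a mean TPM of 1 or more and 1 (Cyp2d11) of the 32 members without reads in the gene tables. For Cyp2s1, 9 of 10 introns were tied, with 1 to 9206 reads and a median of 1699. Cyp2f2 had 10 of 11 (median 309 reads), Cyp2c65 7 of 8 (median 55) and Cyp4f13 13 of 22 (median 117). Cyp4f39 had 13 of 15 (median 61), Cyp4f16 15 of 18 (median 51) and Cyp4f18 12 of 13 (median 47.5). The other genes with a mean TPM of 5 or more had medians of 12 for Cyp2j6, 16.5 for Cyp27a1, 36 for Cyp4b1 and 59.5 for Cyp2d22. Reads were spread unevenly along a gene, so the median describes a gene only loosely.

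Here Cyp2c66 differed from the gene tables, with 140, 98 and 853 reads at 3 of its introns. No read was tied to Cyp2c66 between exons 2 and 3, 3 and 4, 4 and 5, 5 and 6, or 8 and 9. At those places Cyp2c65 had 0, 20, 10, 55 and 9 reads. Junctions that run from an exon of Cyp2c65 to the next exon of Cyp2c66 were listed as well. Between exons 7 and 8 the table gave 1236 reads within Cyp2c65, 853 within Cyp2c66 and 852 from Cyp2c65 to Cyp2c66. For exons 6 and 7 the values were 3515, 98 and 98, and for exons 1 and 2 they were 163, 140 and 150. The bases on both sides of the junction between exons 7 and 8 are shown because the genes share them, with the start of exon 8 in capitals (spliced sequence, GENCODE M21).
Cyp2c65: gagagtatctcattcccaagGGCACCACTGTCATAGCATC
Cyp2c66: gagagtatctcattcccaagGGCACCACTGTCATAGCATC
The 40 bases were the same in both genes, and so were all 76 bases of a window of the read length centred there. In the windows of the other junctions 64 to 75 of the 76 bases were shared. Whether the same reads were counted at several places was not tested.

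**Figure D4:**
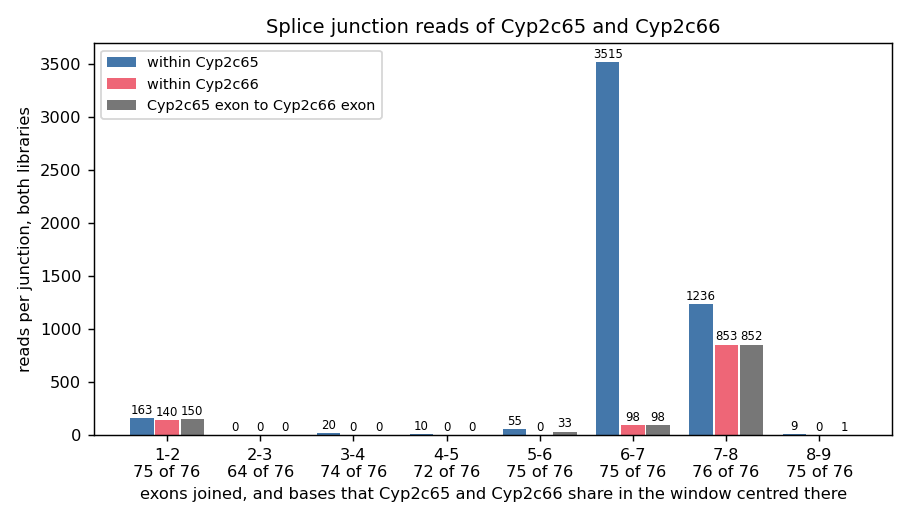
Reads per splice junction, both libraries together, at the 8 exon pairs of Cyp2c65 and Cyp2c66, with the number of bases shared in a window of 76 bases under each. Bars stand for junctions within Cyp2c65, within Cyp2c66 and from Cyp2c65 to Cyp2c66, and the last of these reach 852 reads at exons 7 and 8, where all 76 bases are shared.

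Junctions between different members were listed for 22 pairs of members of the same cluster, and in 12 pairs a junction reached at least 10 reads. After Cyp2c65 and Cyp2c66, the highest were between Cyp4f16 and Cyp4f37, with up to 76 reads. The coding sequences of that pair were 96.0% identical, and the gene tables assigned 0 and 5 read pairs to Cyp4f37. In the gene tables the posterior standard deviation was at most 0.343% of the gene's count for every member with a mean TPM of 1 or more, and for Cyp4f16 it was 0.0125% and 0. For Cyp2c66 it was 13.6% and 11.1%.

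The genes that serve P450 enzymes were detected in larger shares than the enzymes, and are read against the 48.9% detected and the median TPM of 1.15 of all protein-coding genes. All 10 genes of the electron donor list, which also holds the P450 partners Pgrmc1 and Pgrmc2, were detected, with a median TPM of 28.7. The highest were Cyb5r3, the cytochrome b5 reductase (123.2 ± 6.82), Por, the reductase that feeds the microsomal enzymes (92.2 ± 21.2), and Pgrmc1, a heme-binding partner (57.8 ± 15.2). Of 13 genes of heme synthesis and breakdown, 12 were detected with a median of 15.1, led by Alad (126.0 ± 46.5), Blvrb (78.7 ± 8.81) and Alas1, the first enzyme of heme synthesis (66.7 ± 5.96).

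Of 17 receptors and sensors that control P450 genes, 14 were detected, with a median TPM of 7.72. Hnf4a, a factor that maintains P450 genes in liver, had 85.6 ± 2.77, and the partner receptors Rxra and Rxrb had 56.8 ± 10.4 and 37.3 ± 7.62. All 4 epoxide hydrolases were detected (median 16.8), with Ephx3, Ephx1 and Ephx2 at 21.7 ± 2.76, 20.7 ± 4.39 and 12.9 ± 0.750. Enzymes with a P450 fold that carry another name were detected too, 3 of 3 with Cyp51 included: the prostacyclin synthase Ptgis had 20.4 ± 6.92, Cyp51, of cholesterol synthesis, had 7.17 ± 0.0636, and the thromboxane synthase Tbxas1 had 2.33 ± 0.205.

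**Figure D5:**
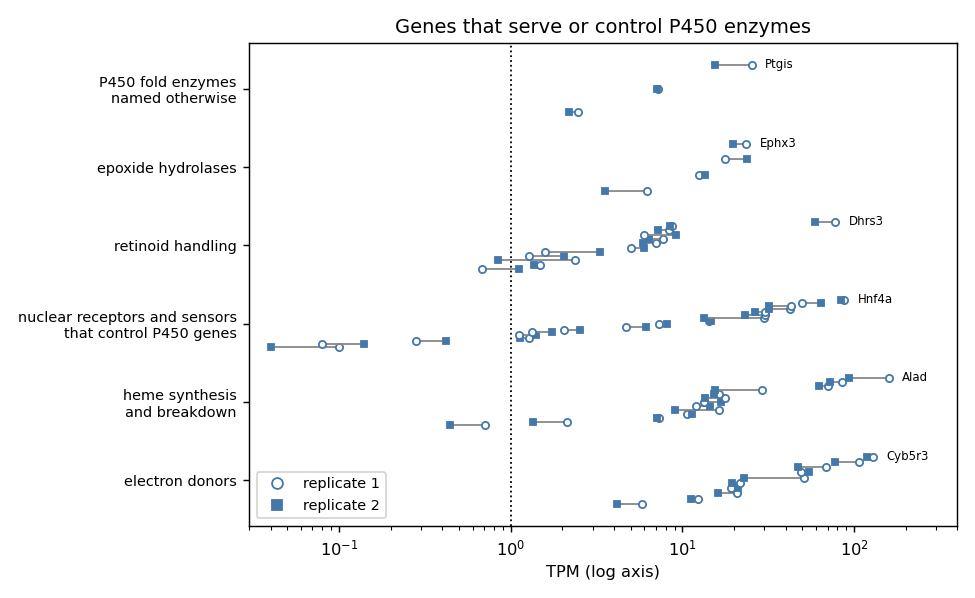
TPM (log axis) of genes that serve or control P450 enzymes, by list, with a line joining replicate 1 (open circle) and replicate 2 (filled square) and the highest gene of each list named. Genes at 0 in both libraries are not drawn, and all 10 genes of the electron donor list lie to the right of the dotted line at a TPM of 1.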

How the data were processed

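Stranded paired reads of 76 bases came from polyadenylated RNA above 200 nucleotides, per the labels. The authors deposited 1 gene table and 1 transcript table per library, made from transcriptome alignments on mm10 with GENCODE M4, per the README beside them. For aligner and quantifier the sources used here give no name. These deposited tables hold expected counts (read pairs, with shared reads divided by a model), TPM over all transcripts including spike-ins, FPKM and a posterior mean TPM, per the file headers. The authors also deposited counts of reads per splice junction on mm9, which are not tied to a library here.

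Symbols, positions and coding sequences were taken from GENCODE M21 (mm10), which is newer than M4 and named 98.0% of the mouse genes. Upstream sequences came from RefSeq (GRCm38.p6). No coordinates were converted between builds. An mm9 junction was tied to a gene where at least 2 introns had that gene's lengths and spacing and lay within 1000 bases of the place given by 20 neighbouring genes.

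Levels are mean TPM ± SD. Ratios used expected counts rounded to whole numbers, scaled with TMM in edgeR 4.0.16 with a prior count of 2. Their exact Clopper-Pearson 95% intervals cover counting error only, as the tables count read pairs and not molecules. Spike-ins (1.14% and 1.12% of counts) and other rows that name no mouse gene (0.252% and 0.185%) stayed out of library sizes. The coefficient of variation between the libraries was 0.295. The ratios, their intervals and the estimate of this coefficient were tried on simulated data, and the other steps were not. No sample was dropped.

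All members at a mean TPM of 1 or more are named, below that the 3 highest of each role and the rest by range. Other lists are given by their count, median and 3 highest genes. Members, roles and lists were chosen with earlier results of these data known. Alternatives were other scalings (DESeq2 1.42.0 size factors, library total, spike-in total, upper quartile), a prior count of 0.5, log2(TPM + 1), other TPM limits, posterior mean TPM, FPKM, totals without Clps and Pgc, and leaving out a library.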

Additional observations from a re-analysis of the deposited data

How the results depend on the processing

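With single libraries 20 to 23 members passed the TPM limit, against 19 in both, and the family sum ran from 477.9 to 501.5. A TPM limit of 5 left 11 members and a limit of 10 read pairs gave 41. Without Clps and Pgc in the total, the family sum was 777.1 in place of 489.7. Members at least 2-fold higher in replicate 1 numbered 1 in place of 3 under upper quartile scaling, on log2(TPM + 1) and at a mean TPM of 5 or more, and 8 with no filter on low values. Members at least 2-fold higher in replicate 2 numbered 0 in place of 2 on log2(TPM + 1) and at a mean TPM of 5 or more, and 14 with no filter. The filters change how many members are counted, and the 1 added to TPM shrinks the ratios of genes near that level. Other causes were not tested. Of the 5 members past the 2-fold limit, 1 (Cyp4f18) passed it under every scaling, prior count and TPM scale tried, and none of the 5 changed sign. Cyp21a1 and Cyp2j9 fell short of it on log2(TPM + 1) alone, with 0.94 and 0.76. An alternative chosen after seeing the data set all read pairs over the longest coding transcript. It lowered the TPM of Cyp4f18 by 2.10 times, of Cyp2r1 by 1.88 times and of Cyp4f16 by 1.58 times. Smaller reductions included those of Cyp4b1 by 1.40 times, Cyp27a1 by 1.29 times, Cyp4f13 by 1.22 times and Cyp2s1 by 1.16 times. No paired analysis was possible because there is 1 group of libraries. Members with few read pairs are limited by depth.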
